A study of Mus musculus with 12 samples.

Results

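The effect of the partner cell at the earlier time was examined: 6 of the 12 libraries in the series, 3 from mouse spleen T cells kept for 24 h with Res cells carrying a control construct (control partner) and 3 from T cells kept for 24 h with Res cells carrying a short hairpin RNA against Fabp7 (shFabp7 partner). The other 6 libraries are the same pair of groups at 48 h and entered the same fit. The labels say of all groups that the tissue is spleen and the cell type T cell, in RPMI-1640 with serum and antibiotics. They give no meaning for Res, no strain, age or sort, and no stimulus. The hairpin was in the partner cells, so the T cells themselves were not edited, and whether the hairpin lines were clones or pools is not given in the sources used here. The comparison asks which genes of the T cells change with the partner.

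When a T cell is activated it leaves quiescence and grows before it divides. It makes more ribosomes, imports more protein into mitochondria and raises the synthesis of nucleotides, polyamines and sterols, in large part under the transcription factor MYC. At the same time it gives up genes of the naive state, such as the interleukin-7 receptor and the GIMAP family of GTPases, and secretes cytokines including interleukin-2 and interferon-gamma. Interferon-gamma, read by its receptor on T cells and on their neighbours, induces guanylate-binding proteins, immunity-related GTPases and, in antigen-presenting cells, MHC class II.

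The 24 h libraries held 31952873 to 38616314 counts, and 16945 genes were tested. T cell RNA was present: Trac, the T cell receptor alpha constant region, stood at 394, 413 and 399 CPM (reads per 1000000 reads, scaled for library composition) with the control partner and at 383, 386 and 406 with the shFabp7 partner. These groups overlapped, with a log2 difference of -0.04 ± 0.05 (SE, adjusted p = 0.71). Trac does not show that the libraries held T cells alone, and markers of other cell types are given with the MHC class II genes below. Fabp7 had 0 counts in all 6 libraries, which allows up to 0.0817 to 0.1006 CPM in a library, so the knockdown in the partner cells could not be checked here. Of the epithelial marker list, 7 of 16 genes were expressed enough to be tested, none was called, their summed level was 12.9 to 14.4 CPM with the control partner and 12.1 to 12.8 CPM with the shFabp7 partner, and Esrp1 and Sftpc had 0 counts throughout. The labels do not say whether replicates were separate cultures or animals, and a p-value therefore describes the spread among these libraries alone, which may be technical.

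With the shFabp7 partner, 1842 genes differed at 24 h at an adjusted p under 0.05, which is 10.9% of the genes tested. Higher were 1054 genes (6.22%) and lower 788 (4.65%). The balance of directions depended on how libraries were scaled: higher genes made up 57.22% of calls with the TMM scaling used throughout, 71.86% with RLE scaling, 73.11% with DESeq2, 42.11% with upper-quartile scaling and 33.22% with library totals. The median log2 difference over all genes was -0.0041 and moved only between -0.0473 and 0.0224 over these scalings.

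Most of these differences were small. Of the called genes, 883 differed by less than 0.25 on the log2 scale (602 higher, 281 lower), 728 by 0.25 to 0.5 (391 higher, 337 lower), 147 by 0.5 to 1 (36 higher, 111 lower) and 84 by 1 or more (25 higher, 59 lower). With TMM scaling, small called changes were therefore mostly upward and large ones mostly downward. This split by size was not repeated with the other scalings, 2 of which turned the balance of directions. Against a null of a 1.2-fold change rather than of no change, 14 genes were called, 5 higher and 9 lower. The 3 libraries of each group did not overlap in CPM for 1767 of the 1842 called genes, and for 27.5% of all tested genes (15% higher and 12.5% lower with the shFabp7 partner). Absence of overlap was also a condition for naming the genes with the smallest adjusted p or the largest log2 difference. Where it is stated below for such genes, it adds no further evidence. Leaving out control library 1 lowered the calls to 949 and leaving out shFabp7 library 1 to 1045. A core of 644 calls, 447 higher and 197 lower, was kept whichever 24 h library was left out.

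**Figure D1:**
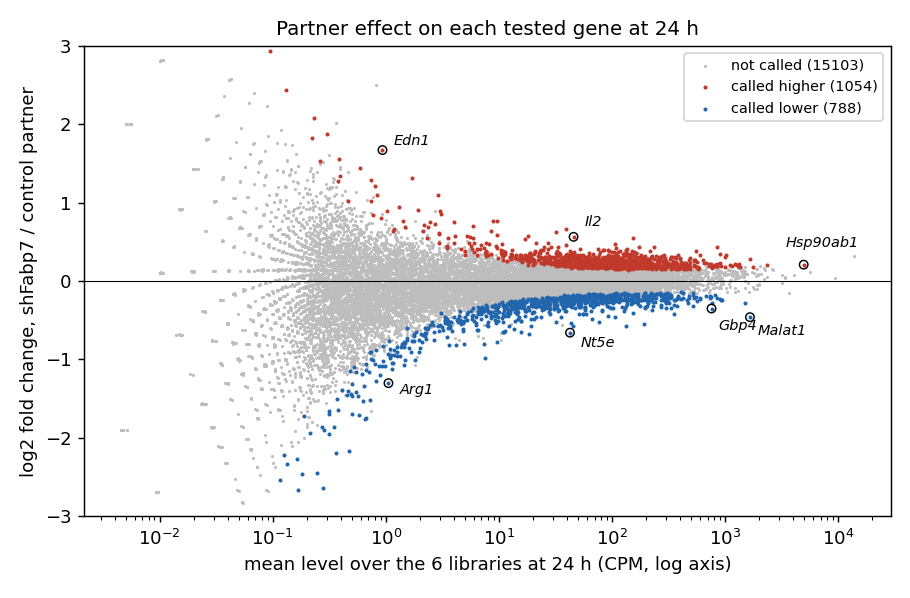
Log2 difference between the shFabp7 and the control partner at 24 h (vertical axis) against mean CPM over the 6 libraries (horizontal axis, log scale), 1 point per tested gene, with the 1054 genes called higher in red, the 788 called lower in blue and 7 genes circled and named. Most called genes lie close to 0, and 41 genes beyond 3 log2 units fall outside the axis and are not drawn.

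Promoters are shown for genes of the groups described next, to let the sequence be read beside the expression values. The window searched was 250 bases before to 50 after the RefSeq start (build GRCm38.p6), on both strands, and 11337 of the 16945 tested genes had a promoter in that table. The 4 below belong to genes that rose and hold CACGTG, the E-box that MYC and MAX bind, in capitals. They are 3 ribosome assembly genes and Impdh2, and each stretch is 120 bases on the gene's strand, at chr15:83122915-83123034 (Rrp7a, minus strand), chr6:125131798-125131917 (Nop2, plus), chr11:3963905-3964024 (Pes1, plus) and chr9:108560301-108560420 (Impdh2, plus).
Rrp7a: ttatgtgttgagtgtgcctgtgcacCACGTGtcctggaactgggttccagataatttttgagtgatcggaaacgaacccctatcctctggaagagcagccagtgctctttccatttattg
Nop2: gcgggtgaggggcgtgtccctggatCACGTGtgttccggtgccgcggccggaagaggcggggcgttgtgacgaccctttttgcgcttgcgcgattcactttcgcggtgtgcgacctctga
Pes1: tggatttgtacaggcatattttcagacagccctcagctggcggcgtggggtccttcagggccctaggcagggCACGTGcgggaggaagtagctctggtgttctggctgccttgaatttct
Impdh2: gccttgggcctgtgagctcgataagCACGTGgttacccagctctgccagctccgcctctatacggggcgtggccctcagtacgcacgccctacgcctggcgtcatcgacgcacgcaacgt
The E-box began 208 bases before the start in Rrp7a, 60 before it in Nop2, 110 before it in Impdh2, and 2 bases from the start in Pes1. CACGTG was in 22.62% of the 84 ribosome assembly promoters that could be matched (of 102 genes), in 15.89% of 856 promoters of called higher genes (of 1054), in 9.87% of the promoters of all tested genes and in 7.24% of all 27025 promoters in the table. Of the ribosome assembly genes, 10 of 19 with the motif were called and 40 of 65 without it.

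Interferon motifs are shown for the GTPases Gbp7 and Igtp, which fell. Capitals mark the gamma-activated site TTCNNNGAA, a motif of interferon-gamma responsive promoters, and the interferon-stimulated response element, searched as 2 copies of TTTC separated by any 2 bases. Both stretches are 120 bases of the plus strand, at chr3:142530205-142530324 (Gbp7) and chr11:58199486-58199605 (Igtp).
Gbp7: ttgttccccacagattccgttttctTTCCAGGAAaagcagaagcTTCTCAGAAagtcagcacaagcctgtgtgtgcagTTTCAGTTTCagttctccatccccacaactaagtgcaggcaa
Igtp: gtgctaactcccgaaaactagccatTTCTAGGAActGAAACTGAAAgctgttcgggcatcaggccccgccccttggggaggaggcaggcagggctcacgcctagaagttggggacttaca
Gbp7 held gamma-activated sites 106 and 87 bases before the start and a response element 53 before it. Igtp held them 45 and 34 bases before the start, the response element on the opposite strand. The response element was in 10 and the gamma-activated site in 6 of the 12 GTPase promoters that could be matched. The shares were 3.17% and 6.96% for the promoters of all tested genes, and 3.49% and 8.47% for all promoters in the table. Only 12 of 27 GTPase genes had a promoter there, too few for a share of the family. In all tested promoters the motifs occurred together in 50 and overlapped in 12.

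Ribosome assembly was the group with the most called genes among those described here. Of 102 genes for the factors that process ribosomal RNA and build the subunits, 59 rose and none fell, with a median log2 difference of 0.19, and all 102 values were above 0. The libraries of the 2 partners did not overlap for 83 of them. Rrp9, which belongs to the U3 particle that starts the cleavage of ribosomal RNA, was at 141, 163 and 140 CPM with the control partner and at 204, 201 and 195 CPM with the shFabp7 partner (log2 difference 0.43 ± 0.06, adjusted p = 3.107e-05). Every shFabp7 library was above every control library. Rrp7a was at 124, 135 and 122.7 CPM against 167, 154 and 164 CPM (0.35 ± 0.05, adjusted p = 0.0001075), again without overlap. Nop2, a methyltransferase of 28S rRNA, rose by 0.32 ± 0.06 (adjusted p = 0.001195), and Pes1, a subunit of the PeBoW complex of large-subunit assembly, by 0.23 ± 0.05 (adjusted p = 0.002284). Without any 1 library, 46 to 88 of the 102 were called higher and none lower.

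Transcripts for mitochondrial translation and protein import rose by a similar amount. Of 77 mitochondrial ribosomal protein genes 30 rose and none fell (median 0.18), and of 37 genes for import and mitochondrial chaperones 18 rose and none fell (median 0.18). Mrpl12, a large-subunit protein, went from 132 ± 14.9 CPM (SD, n = 3) to 171 ± 4.37 CPM (0.38 ± 0.06, adjusted p = 0.0001075). Tomm40, the pore through which proteins enter mitochondria, went from 186 ± 7.57 to 244 ± 9.03 CPM (0.39 ± 0.07, adjusted p = 0.001536). Of 81 nuclear genes of the respiratory chain, 13 rose and none fell (median 0.14). One of them was Atp5b, the catalytic beta subunit of ATP synthase, with 1133, 1249 and 1170 CPM against 1413, 1325 and 1361 CPM (0.21 ± 0.05, adjusted p = 0.008714). No member of the 12 mitochondrially encoded genes was called, and their median was -0.12. These counts moved with 1 library: without shFabp7 library 1, 19 mitochondrial ribosomal genes were called, and the respiratory chain count was 47 without control library 2 and 7 without control library 3. Over the scalings tried, they ran from 13 to 45 and from 5 to 32.

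Cytosolic ribosomal protein genes did not follow the assembly factors at the same size. Of 85, 5 rose (5.88%, against 6.22% of all tested genes) and none fell. Values above 0 were found for 82, and the median was 0.10. The member with the smallest adjusted p, Rps27l, is a p53-induced paralog of a small-subunit protein (79.6 ± 9.72 against 105 ± 11.97 CPM, 0.40 ± 0.09, adjusted p = 0.006932). Without control library 2, 32 were called; the count was 8 without shFabp7 library 1, 1 without shFabp7 library 2 and 3 without shFabp7 library 3, and 1 to 22 over the scalings. Control library 2 was the control library nearest the shFabp7 libraries for this group, with a mean of 0.08 against 0.03 and -0.11 in control libraries 1 and 3 (log2 CPM relative to the control mean) and 0.06 to 0.15 in the shFabp7 libraries.

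The rest of the translation machinery had the same sign. Among 53 translation initiation factor genes 15 rose and none fell (median 0.13). Eif5a, whose protein carries the polyamine-derived amino acid hypusine, was at 1460, 1526 and 1482 CPM with the control partner and at 1853, 1736 and 1851 CPM with the shFabp7 partner (0.28 ± 0.05, adjusted p = 0.0005314). Its groups were well apart. Eif3b, a scaffold subunit of initiation factor 3, rose by 0.26 ± 0.06 (adjusted p = 0.003102). Cytosolic aminoacyl-tRNA synthetases gave 6 higher of 23 (median 0.10), RNA polymerase I and III subunits 5 of 18 (0.14), RNA polymerase II subunits 5 of 13 (0.15), spliceosomal snRNP proteins 15 of 46 (0.15), nucleoporins 9 of 28 (0.13) and nuclear import and export factors 9 of 32 (0.09), with none lower in these 6 groups. Ranbp1, which helps recycle the nuclear transport GTPase Ran, went from 74.9 ± 1.48 to 90.3 ± 3.83 CPM (0.27 ± 0.05, adjusted p = 0.00118). Without control library 2 the initiation factor count was 29, the snRNP count 25, the nucleoporin count 14 and the RNA polymerase II count 8. Without control library 1, polymerase I and III gave 3 and polymerase II 2, without shFabp7 library 1 polymerase II gave 3, and without control library 3 the synthetases gave 11. Over the scalings the initiation factor count ran from 12 to 30, the snRNP count from 10 to 24 and the polymerase counts from 3 to 6 and from 2 to 7.

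Transcripts of protein quality control genes also rose in part. Heat shock chaperones gave 12 higher and none lower of 27 (median 0.17), and constitutive proteasome subunits 10 higher and none lower of 41 (median 0.15). Hspa8, the constitutive cytosolic HSP70, was at 2083, 2318 and 2073 CPM against 2514, 2487 and 2487 CPM (0.21 ± 0.05, adjusted p = 0.008509). Psmd3, a subunit of the proteasome lid, rose by 0.23 ± 0.05 (adjusted p = 0.003903). The chaperone count was 4 without control library 1 and 7 without shFabp7 library 1. The proteasome count was 33 without control library 2, and 6 both without control library 3 and without shFabp7 library 1. Over the scalings these counts ran from 6 to 18 and from 5 to 27. Of 34 endoplasmic reticulum folding genes, 3 were higher (8.82%, against 6.22% of all tested genes) and 1 lower (2.94%, against 4.65%), with a median of 0.04. The 3 became 8 without control library 2, 0 without control library 1 or without shFabp7 library 1, and 0 to 7 over the scalings.

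**Figure D2:**
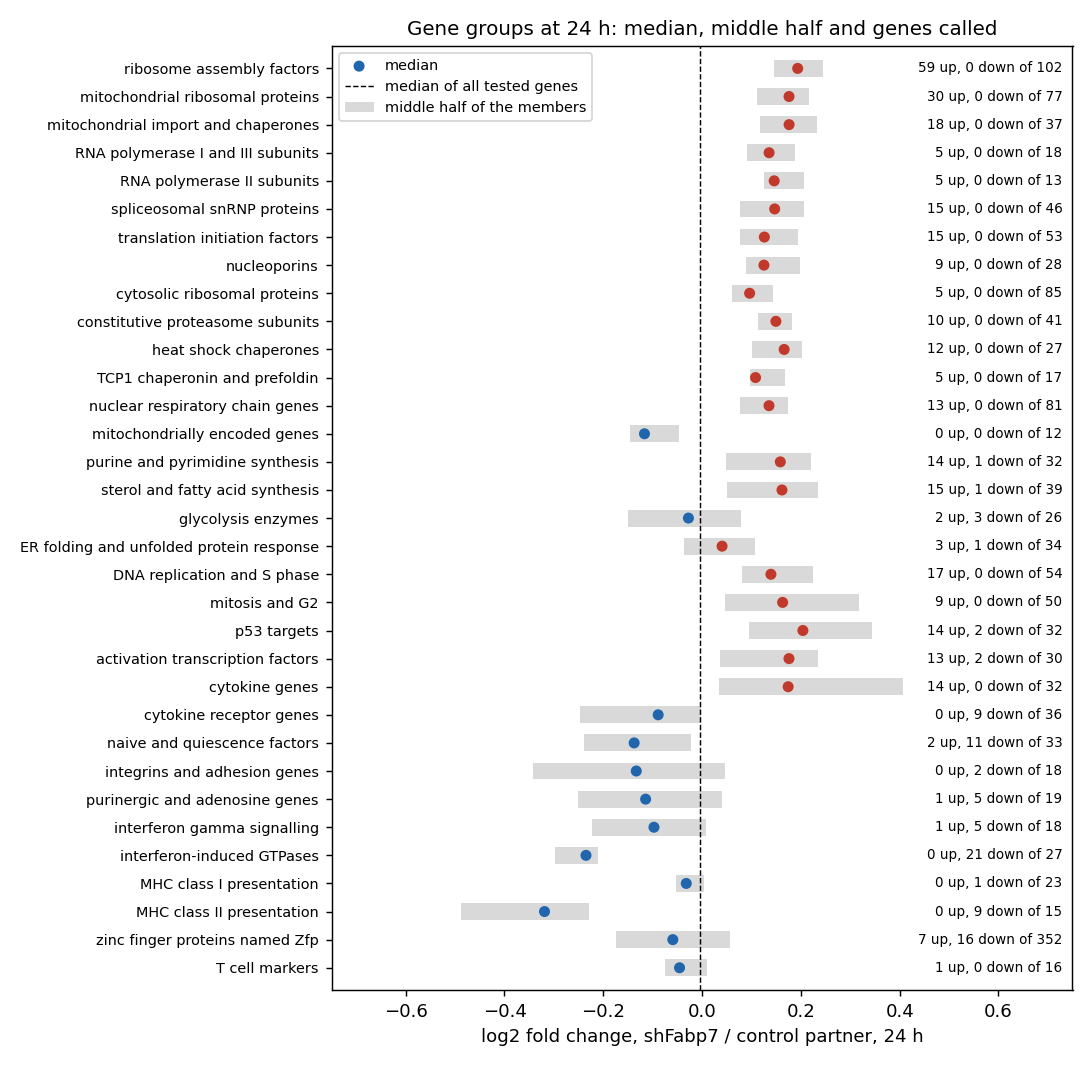
Log2 difference between partners at 24 h (horizontal axis) for 33 gene groups (vertical axis); the dot is the median over the tested members (red above 0, blue below), the grey bar spans the middle of the members from the lower to the upper quartile, the dashed line is the median of all tested genes, and the numbers at the right are the genes called. The bar of ribosome assembly runs from 0.15 to 0.24, and those of the interferon-induced GTPases and MHC class II genes lie below 0.

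Transcripts for the biosynthesis of small molecules rose in selected branches. Of 32 genes of purine and pyrimidine synthesis, 14 rose and 1 fell (median 0.16). Impdh2, the rate-limiting enzyme of guanine nucleotide synthesis, was at 279, 310 and 306 CPM against 379, 363 and 369 CPM (0.31 ± 0.05, adjusted p = 0.0004246), with no overlap. Uck2, which salvages uridine and cytidine, rose by 0.27 ± 0.05 (adjusted p = 0.001082). Odc1, the first enzyme of polyamine synthesis, went from 357 ± 34.1 to 435 ± 13.98 CPM (0.29 ± 0.06, adjusted p = 0.0009602), in a list of 16 of which 5 rose and 2 fell. Among 19 genes of serine and one-carbon metabolism 5 rose and 1 fell. They included the folate enzymes Shmt1 (0.38 ± 0.06, adjusted p = 0.0002387) and Mthfd1 (0.25 ± 0.05, adjusted p = 0.002426). That count was 3 without control library 1 and 3 without shFabp7 library 1.

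Sterol and fatty acid synthesis gave 15 higher and 1 lower of 39 genes (median 0.16). Fasn, the fatty acid synthase, was at 706, 725 and 723 CPM with the control partner and at 1024, 930 and 948 CPM with the shFabp7 partner (0.43 ± 0.08, adjusted p = 0.00245). Insig1, which retains the sterol sensor in the endoplasmic reticulum, rose from 73.1 ± 3.20 to 89.7 ± 3.40 CPM (0.29 ± 0.06, adjusted p = 0.001308). Cpt1a, which admits long-chain fatty acids to mitochondria for oxidation, fell from 30.9 ± 0.481 to 25.2 ± 1.10 CPM (-0.29 ± 0.06, adjusted p = 0.00291). It was the 1 gene called lower of 24 in fatty acid oxidation (4.17%, against 4.65% of all tested genes). Eci1 of the same list was the 1 called higher (0.33 ± 0.08, adjusted p = 0.007788), and the list median was -0.05. Without control library 1 the sterol and fatty acid count was 8.

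The series title concerns ferroptosis, an iron-dependent death by lipid peroxidation. Of 22 iron and ferroptosis genes in the T cells, 2 rose (9.09%, against 6.22% of all tested genes) and none fell, and the median was -0.04. The 2 were Tfrc, the transferrin receptor (0.21 ± 0.07, adjusted p = 0.04445), and Dhodh, a mitochondrial enzyme of pyrimidine synthesis (0.20 ± 0.07, adjusted p = 0.04596). Both lay close to the threshold: Tfrc was no longer called without control library 3, shFabp7 library 1 or shFabp7 library 2 (adjusted p up to 0.1482), and Dhodh without control library 1 or any 1 shFabp7 library (up to 0.188). Both also lost the call with upper-quartile scaling (0.07852 and 0.08561), with library totals (0.1359 and 0.1235) and with the 24 h libraries fitted alone (0.05561 and 0.05444). Gpx4, the peroxidase that detoxifies lipid peroxides, was at 83.2 ± 7.75 and 82.5 ± 2.08 CPM (-0.01 ± 0.06, adjusted p = 0.9243).

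Genes of DNA replication and S phase gave 17 higher and none lower of 54 (median 0.14), and genes of mitosis 9 higher and none lower of 50 (median 0.16). Rrm2, the regulated subunit of ribonucleotide reductase, was at 18.01, 16.7 and 18.8 CPM against 27.2, 24.0 and 23.7 CPM (0.49 ± 0.07, adjusted p = 3.107e-05), with every shFabp7 library higher. Uhrf1, which maintains DNA methylation at replication, went from 113 ± 2.14 to 143 ± 11.7 CPM (0.34 ± 0.06, adjusted p = 0.0006674). Pold2, a subunit of DNA polymerase delta, rose by 0.26 ± 0.05 (adjusted p = 0.002076). Mitotic transcripts were scarce at this time. Foxm1, the transcription factor of G2 and mitosis, stood at 11.2 ± 0.452 CPM and rose by 0.40 ± 0.08 (adjusted p = 0.0008382), and Kif2c, a microtubule-depolymerising kinesin, was at 2.24, 2.04 and 1.76 CPM against 3.62, 3.89 and 2.58 CPM (0.73 ± 0.15, adjusted p = 0.002038). Without control library 2, 27 S phase and 17 mitotic genes were called. Without shFabp7 library 1 these counts were 11 and 3, and without control library 1 the mitotic count was 5. Over the scalings the counts ran from 10 to 21 and from 7 to 15. The E2F site TTTCCCGC was in 9 of the 45 matched S phase promoters (20%, of 54 genes). It was in 2.06% of the promoters of all tested genes, in 2.45% of those of called higher genes and in 1.11% of all promoters in the table.

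Inhibitors of the cell cycle moved in both directions. Cdkn1b (p27), which holds resting T cells out of the cycle, fell from 125, 103 and 114 CPM to 83.8, 91.2 and 94.8 CPM (-0.34 ± 0.06, adjusted p = 0.0005792). Cdkn1a (p21), a p53 target, rose from 74.1, 93.1 and 96.7 CPM to 118, 136 and 113 CPM (0.47 ± 0.08, adjusted p = 0.001208). Neither gene had overlapping groups.

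The p53 targets had the largest positive median of the lists with more than 10 called members: 14 of 32 rose, 2 fell, and the median was 0.20. Gtse1, a target that restrains p53 and is also a G2 and S phase gene, was at 23.8, 25 and 26.1 CPM against 38.8, 41.8 and 35.4 CPM (0.63 ± 0.06, adjusted p = 2.107e-07). Phlda3, an inhibitor of AKT, was at 27.4, 33.2 and 29.8 CPM against 46.0, 54.3 and 42.9 CPM (0.66 ± 0.09, adjusted p = 6.473e-05). In both genes the shFabp7 libraries lay wholly above the controls, with shFabp7 library 2 highest. Bbc3 (PUMA), which promotes apoptosis, rose by 0.46 ± 0.08 (adjusted p = 0.0008351), and so did the survival gene Bcl2l1 (BCL-XL), by 0.28 ± 0.05 (adjusted p = 0.0008952). The count of p53 targets called higher was 13 to 16 without any 1 library, and the count called lower was 0 without control library 1 or shFabp7 library 1 and 1 without control library 3 or shFabp7 library 2.

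Activation genes and cytokines rose. Of 30 activation transcription factors 13 rose and 2 fell (median 0.18), and of 32 cytokine genes 14 rose and none fell (median 0.17). Il2, the T cell growth factor, was at 36.4, 39.7 and 34.4 CPM against 55.2, 60.5 and 47.7 CPM, and Ifng at 119, 141 and 113 CPM against 187, 198 and 160 CPM. For both, the lowest shFabp7 library was above the highest control library (0.56 ± 0.08 and 0.55 ± 0.07, adjusted p = 3.922e-05 and 7.124e-05). Il10, an anti-inflammatory cytokine, went from 13.9 ± 1.18 to 20.02 ± 1.696 CPM (0.53 ± 0.09, adjusted p = 0.0005056), and Tnfsf14 (LIGHT), a TNF family ligand, from 36.6 ± 2.33 to 47.7 ± 2.27 CPM (0.38 ± 0.06, adjusted p = 0.0002387). Granzyme B, Gzmb, rose by 0.25 ± 0.05 (adjusted p = 0.003166) and the chemokine Ccl3 by 0.41 ± 0.06 (adjusted p = 0.0001434). Gzmb was the 1 member called higher of 21 cytotoxic granule genes (4.76%, against 6.22% of all tested genes). In that list Ctsw was called lower (-0.19 ± 0.06, adjusted p = 0.03947), and the median was 0.02. Among the transcription factors, Egr2 (0.37 ± 0.06, adjusted p = 0.0003986) and the AP-1 member Fosl1 (0.41 ± 0.08, adjusted p = 0.001548) rose and Myb fell (-0.31 ± 0.06, adjusted p = 0.002272). Nfkbid, a nuclear modulator of NF-kB that is induced by the T cell receptor, rose from 213 ± 5.68 to 258 ± 6.34 CPM (0.28 ± 0.06, adjusted p = 0.002268). The marker Cd5, whose level follows T cell receptor signal strength, rose by 0.20 ± 0.05 (adjusted p = 0.01115, at most 0.04779 without any 1 library). Without control library 1, 8 of the transcription factors and 9 of the cytokines were called higher, and 9 cytokines without shFabp7 library 2. The transcription factor count ran from 9 to 20 over the scalings.

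Chemokine genes were mixed. Of 23, 3 were higher (13.04%, against 6.22% of all tested genes) and 2 lower (8.70%, against 4.65%). Ccl22, a chemokine of dendritic cells and activated T cells, fell from 212, 213 and 261 CPM to 168, 149 and 152 CPM (-0.55 ± 0.09, adjusted p = 0.00275).

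**Figure D3:**
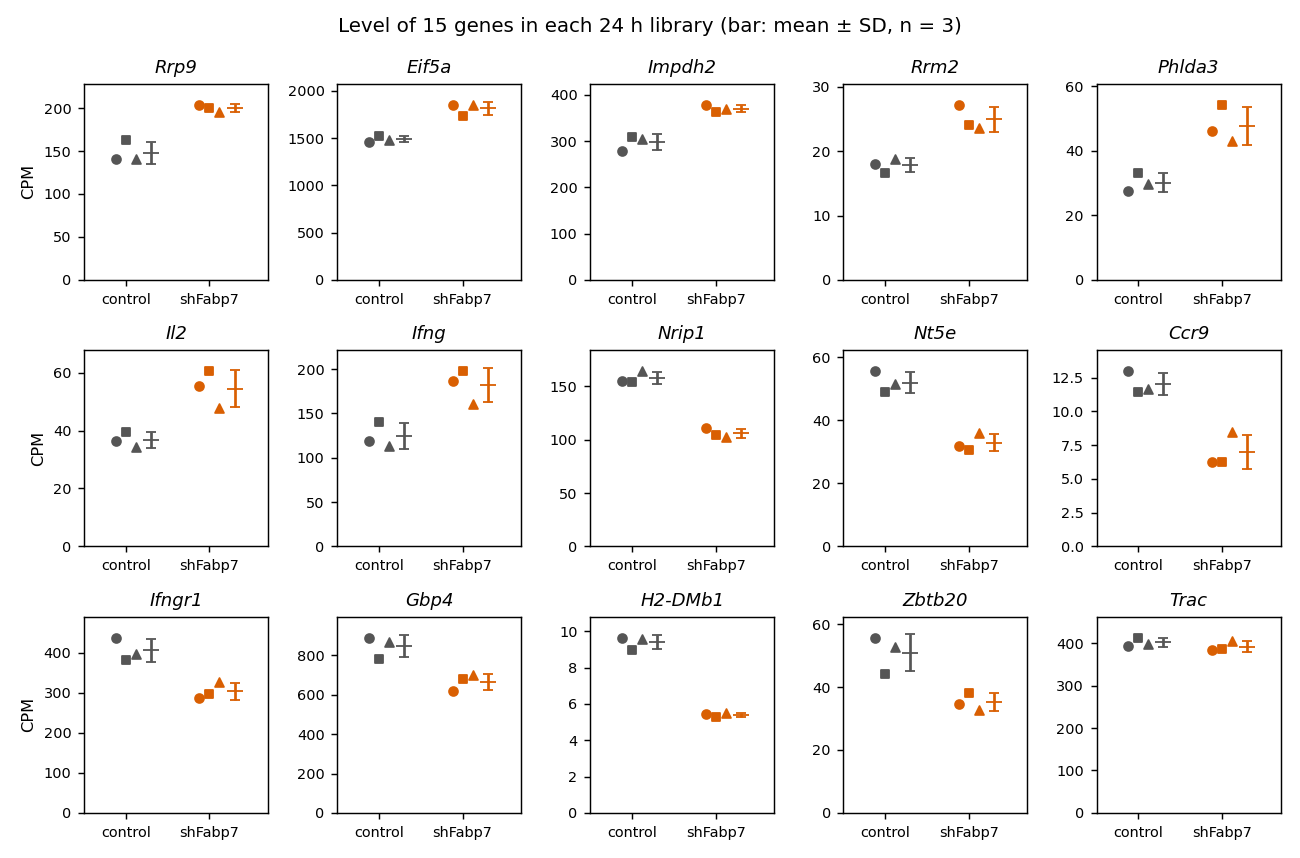
Level in CPM (vertical axes, linear from 0) in each of the 6 libraries at 24 h for 15 genes, by partner on the horizontal axis, with symbols for replicates 1 to 3 and the mean ± SD (n = 3) beside them. Of the 15, Trac is the one whose groups overlap; Il2, Ifng and Rrp9 lie higher and Nt5e, Ccr9 and H2-DMb1 lower with the shFabp7 partner.

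Genes of the naive and quiescent state fell. Of 33, 11 fell and 2 rose (median -0.14). Il7r, the interleukin-7 receptor alpha chain, went from 92.2 ± 7.05 to 71.5 ± 3.93 CPM (-0.37 ± 0.07, adjusted p = 0.0006788), and Rasa3, a GTPase activator for Ras and Rap, from 255 ± 17.3 to 198 ± 9.83 CPM (-0.36 ± 0.05, adjusted p = 5.967e-05). Of the 11, 6 were GIMAP genes, small GTPases that support the survival of resting lymphocytes. Gimap8 was at 396, 358 and 360 CPM against 278, 291 and 308 CPM (-0.34 ± 0.05, adjusted p = 8.947e-05), and Gimap4 fell by 0.31 on the log2 scale (adjusted p = 0.0003924). Against this direction, Slfn2, which is needed for T cell quiescence, rose from 690 ± 44.0 to 805 ± 24.5 CPM (0.22 ± 0.05, adjusted p = 0.006183). Without any 1 library the number called lower was 8 to 14, and over the scalings 11 to 18.

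Receptors for cytokines fell while the cytokines rose. Of 36 cytokine receptor genes, 9 fell and none rose (median -0.09). Ifngr1, the ligand-binding chain of the interferon-gamma receptor, was at 438, 383 and 398 CPM against 287, 297 and 328 CPM (-0.42 ± 0.06, adjusted p = 3.064e-05), with no overlap. Il18r1, the interleukin-18 receptor, was at 103, 80.4 and 94.3 CPM against 65.8, 73.5 and 73.9 CPM (-0.38 ± 0.07, adjusted p = 0.0006251). Of 15 chemokine receptor genes, Ccr9 and Cxcr4 fell (13.33%, against 4.65% of all tested genes) and none rose. Ccr9, the gut chemokine receptor, went from 12.97, 11.5 and 11.6 CPM to 6.25, 6.27 and 8.47 CPM (-0.77 ± 0.10, adjusted p = 2.192e-05), and Cxcr4 from 76.9 ± 5.80 to 54.9 ± 2.97 CPM (-0.48 ± 0.06, adjusted p = 1.472e-05). The alpha-4 integrin Itga4 went from 176 ± 16.7 to 133 ± 3.02 CPM (-0.40 ± 0.06, adjusted p = 2.612e-05). It was 1 of 2 members called lower among 18 integrin and adhesion genes (11.11%, against 4.65% of all tested genes). The integrin and adhesion count was 4 without control library 2, 2 to 5 over the scalings and 5 with GC and length offsets, and with these offsets 4 chemokine receptors were lower and 1 higher.

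Genes that handle extracellular ATP and adenosine were among the clearest falls. Nt5e (CD73), which makes adenosine from AMP, was at 55.6, 48.9 and 51.4 CPM against 31.9, 30.7 and 36.0 CPM (-0.66 ± 0.07, adjusted p = 5.502e-07). P2rx7, an ATP-gated channel, was at 57.6, 49.5 and 53.6 CPM against 34.5, 34.4 and 39.1 CPM (-0.57 ± 0.06, adjusted p = 1.105e-06). In both, every shFabp7 library was below every control library, which the rule that named them required. Entpd1 (CD39), which acts before Nt5e in the same route, fell from 13.97 ± 0.149 to 10.5 ± 0.403 CPM (-0.42 ± 0.08, adjusted p = 0.001208). Of the 19 genes of this list 5 fell and 1 rose (median -0.11), and 3 fell without control library 1 or without shFabp7 library 1. Nrip1, a nuclear receptor co-repressor outside these lists' themes, had the smallest adjusted p of the named genes, with 155, 154 and 164 CPM against 111, 105 and 102 CPM (-0.57 ± 0.05, adjusted p = 6.32e-09).

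**Figure D4:**
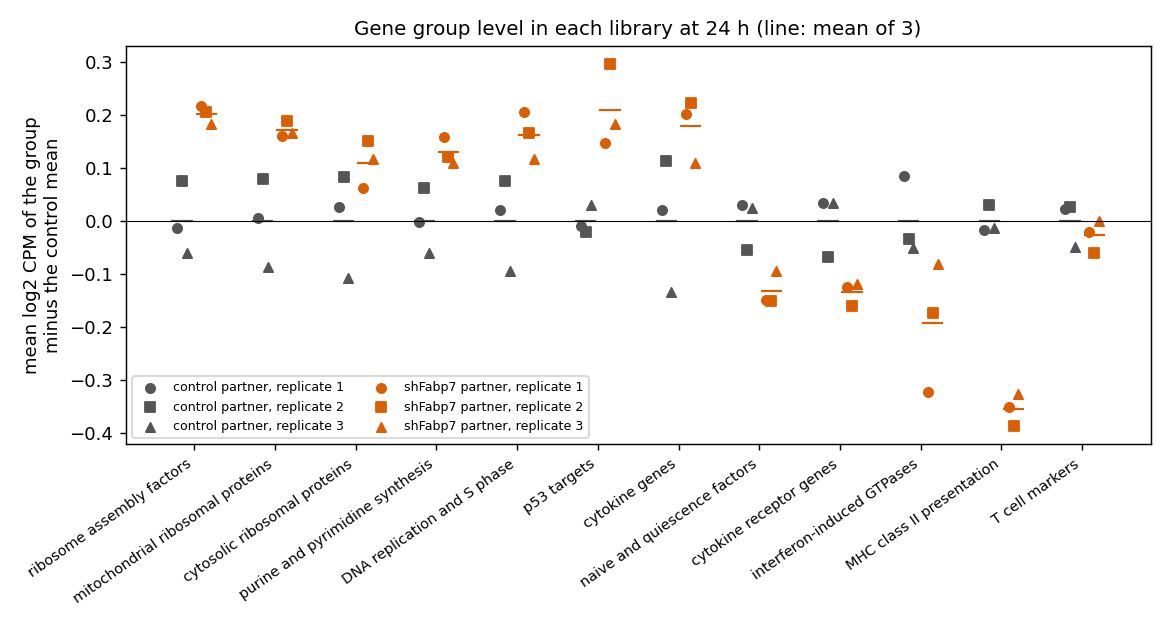
Mean log2 CPM of the members of 12 gene groups (horizontal axis) in each 24 h library, minus the mean of the control libraries (vertical axis), with the partner by colour, the replicate by symbol and the mean of 3 libraries as a line. Ribosome assembly is between -0.06 and 0.07 in the control libraries and between 0.18 and 0.22 in the shFabp7 libraries; the GTPases are at -0.32, -0.17 and -0.08 in the shFabp7 libraries.

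The interferon-induced GTPases fell together, 21 of 27 lower and none higher, with a median of -0.24. They restrict intracellular pathogens and are strongly induced by interferon-gamma, whose transcript was higher. Gbp4 was at 891, 783 and 870 CPM against 619, 679 and 698 CPM (-0.35 ± 0.06, adjusted p = 0.0001412). Gbp7 was at 448, 382 and 421 CPM against 318, 328 and 357 CPM (-0.32 ± 0.06, adjusted p = 0.0004884). Both had groups apart. Igtp was at 920, 884 and 913 CPM against 708, 764 and 861 CPM (-0.22 ± 0.06, adjusted p = 0.01117). Its shFabp7 libraries were spread widely, and it was no longer called without control library 1, shFabp7 library 1 or shFabp7 library 2 (adjusted p up to 0.1926). The size of the fall varied between libraries in the group as a whole. Relative to the control mean, the group's mean log2 level was -0.32, -0.17 and -0.08 in shFabp7 libraries 1 to 3 and 0.09, -0.03 and -0.05 in control libraries 1 to 3. The count was also uneven: 9 were called lower without control library 1, 9 without shFabp7 library 1 and 11 without shFabp7 library 2.

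Around them, interferon-gamma signalling gave 5 lower and 1 higher of 18, the higher one being Ifng itself. Irf1, a transcription factor that these GTPase genes depend on, fell from 794 ± 31.3 to 691 ± 39.1 CPM (-0.20 ± 0.06, adjusted p = 0.01656). It lost the call without the same 3 libraries as Igtp (adjusted p up to 0.1515), and the count of 5 became 1 without any one of these. Type I interferon stimulated genes gave 7 lower and 1 higher of 44 (median -0.08), and their groups overlapped: the mean level was -0.26, -0.23 and 0.16 in the shFabp7 libraries and -0.03, -0.11 and 0.14 in the control libraries. The lower count was 15 without shFabp7 library 3, 3 without control library 3, 1 without control library 1 or shFabp7 library 1, and 0 without shFabp7 library 2. MHC class I presentation gave 1 lower of 23 (4.35%, against 4.65% of all tested genes, median -0.03).

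MHC class II presentation genes fell: 9 of 15 lower, none higher and a median of -0.32, with 6 to 8 lower without any 1 library. H2-DMb1, a chain of the peptide exchange factor H2-DM, was at 9.65, 8.99 and 9.59 CPM against 5.45, 5.26 and 5.50 CPM (-0.80 ± 0.10, adjusted p = 1.493e-05). H2-Ob, a chain of the H2-DM inhibitor H2-O, was at 14.3, 14.1 and 11.8 CPM against 7.66, 8.32 and 9.53 CPM (-0.66 ± 0.10, adjusted p = 0.0001282). The groups were apart for both genes, at low levels. Mouse T cells make little class II, and in a bulk sample fewer cells of a type and less RNA per cell cannot be told apart. Of 20 B cell marker genes 19 were tested and none was called (median -0.16), with a summed level of 1181 to 1254 CPM with the control partner and 1062 to 1314 CPM with the shFabp7 partner and no marker at 0. Of 20 monocyte and macrophage markers 11 were tested and none was called (median -0.30), at 29.5 to 31.7 CPM against 25.7 to 28.2 CPM, without overlap and with no marker at 0. Of 14 dendritic cell markers 9 were tested, with a median of -0.14. Of these, 2 fell (22.22%, against 4.65% of all tested genes) and 1 rose (11.11%, against 6.22%). The sum was 1136 to 1269 CPM against 1015 to 1079 CPM, also without overlap, and Cd209a was at 0. The list includes Ccl22, which activated T cells also make (229 ± 28.2 against 156 ± 9.89 CPM), and the interferon-stimulated Bst2 (93.9 ± 2.90 against 109 ± 9.80 CPM). It also holds the chemokine receptor Ccr7. Its sum therefore does not measure dendritic cells alone. Of 10 endothelial markers 6 were tested and 1, Pecam1, fell; the sum was 104 to 120 CPM against 88.0 to 92.2 CPM and Cldn5 was at 0. Pecam1, an adhesion molecule that naive T cells also carry, made up most of that sum (104 ± 7.98 against 82.9 ± 2.97 CPM, -0.32 ± 0.06, adjusted p = 0.0005555). Of 14 neutrophil markers 8 were tested, all with values below 0 (median -0.70), at 9.98 to 16.01 CPM against 8.68 to 11.4 CPM, with Retnlg at 0. One of them, S100a9, was called lower (-1.20 ± 0.38, adjusted p = 0.04104), at 0.05453 to 0.1632 when any 1 library other than shFabp7 library 3 was left out. Of 9 platelet markers 6 were tested, all with values below 0 and none called (median -0.42), at 10.7 to 12.1 CPM against 8.35 to 10.69 CPM, with Gp1bb at 0. Of 10 mast cell and basophil markers 8 were tested and none was called (median -0.29), at 11.9 to 15.6 CPM against 10.5 to 12.01 CPM, with Mcpt1 at 0. Of 14 fibroblast markers 6 were tested and none was called (median -0.35), at 433 to 456 CPM against 428 to 463 CPM, with Col3a1, Cxcl12 and Postn at 0. The fibroblast list includes Thy1, which is also on the T cell marker list, so its sum does not measure fibroblasts alone. Col1a1 had 8 to 22 counts in a library. The part of such cells in the class II result was not tested.

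In glycolysis 2 genes rose (7.69%, against 6.22% of all tested genes) and 3 fell (11.54%, against 4.65%) of 26, with a median of -0.03. The number higher was 5 without control library 2, 4 without shFabp7 library 3, 1 without control library 1 and 0 without shFabp7 library 1. Over the scalings 0 to 5 were higher and 2 to 5 lower. Slc16a3 (MCT4), which exports lactate, was at 16.1, 18.4 and 18.2 CPM against 13.4, 11.6 and 13.2 CPM (-0.46 ± 0.09, adjusted p = 0.001042), and the enolase Eno2 fell from 7.44 ± 0.903 to 5.13 ± 0.0480 CPM (-0.53 ± 0.10, adjusted p = 0.001042). Bnip3, a hypoxia-induced mitophagy receptor, fell from 11.5 ± 0.694 to 8.10 ± 0.366 CPM (-0.51 ± 0.09, adjusted p = 0.0004633). Of 20 hypoxia response genes it was the 1 called lower (5%, against 4.65% of all tested genes), and 2 rose (10%, against 6.22%). The 2 were Adm (0.94 ± 0.23, adjusted p = 0.006715) and Bhlhe40 (0.20 ± 0.06, adjusted p = 0.02395). In glycolysis, Ldha rose from 1076 ± 85.5 to 1226 ± 26.1 CPM (0.19 ± 0.05, adjusted p = 0.02091). Pgam1, a phosphoglycerate mutase, rose from 285 ± 12.9 to 324 ± 5.79 CPM (0.19 ± 0.06, adjusted p = 0.02835). That call was lost without control library 1, without shFabp7 library 1 and with upper-quartile scaling or library totals (adjusted p up to 0.1205).

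How the 24 h effect differed from the 48 h effect was tested as an interaction, which called 949 genes (5.6%). The time points share no library. In glycolysis 16 of 26 members were called for the difference, and the median was 0.32 at 48 h. Slc16a3 turned from -0.46 at 24 h to 0.55 at 48 h (difference 1.02 ± 0.11, adjusted p = 2.281e-06). Endoplasmic reticulum folding gave 17 of 34, with medians of 0.04 and 0.32. Ribosome assembly gave 42 of 102, with medians of 0.19 and 0.42. Cytosolic ribosomal proteins gave 39 of 85, with medians of 0.10 at 24 h and -0.19 at 48 h. By contrast 2 of the 27 GTPases and 1 of the 15 class II genes were called for a difference; their medians were -0.24 and -0.32 at 24 h and -0.23 and -0.43 at 48 h. For S phase genes the count was 2 of 54 and for p53 targets 7 of 32, and the p53 targets Bbc3 and Phlda3 had lower values at 48 h, -0.15 and 0.24 (differences of -0.61 ± 0.11 and -0.42 ± 0.12, adjusted p = 0.001674 and 0.03893). The interaction count was 319 to 649 when 1 of the 24 h libraries was left out, with fewest without shFabp7 library 2.

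**Figure D5:**
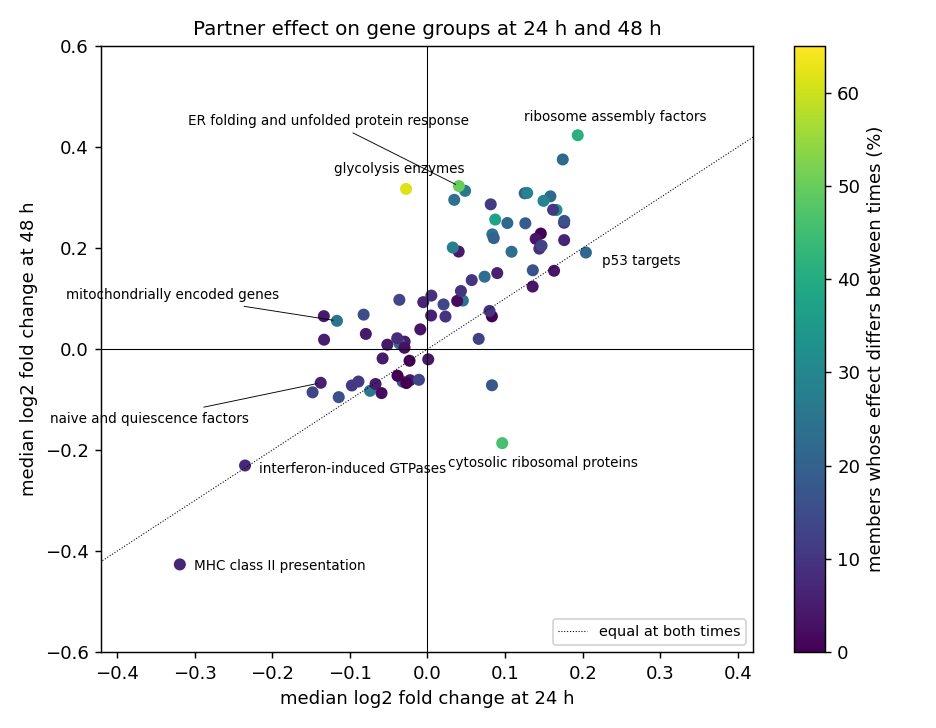
Median log2 difference between partners in each gene group at 24 h (horizontal axis) and at 48 h (vertical axis), 1 point per group with at least 10 tested genes, coloured by the percentage of members whose effect differed between the times; the dotted line marks equal values. Glycolysis and endoplasmic reticulum folding lie near 0 at 24 h and above 0.3 at 48 h, cytosolic ribosomal proteins lie above 0 at 24 h and below it at 48 h, and the GTPases lie close to the line.

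Zinc finger genes were called lower about as often as genes in general. Of 352 genes named Zfp, 16 fell, which is 4.545% against 4.65% of all tested genes, and 7 rose (median -0.06). With the offsets for GC content and length described next, 12 were lower and 14 higher. Of 37 BTB zinc finger genes 6 fell and 1 rose (median -0.03). Zbtb20, one of the latter, was at 55.7, 44.3 and 52.8 CPM against 34.5, 38.2 and 32.6 CPM (-0.54 ± 0.08, adjusted p = 0.0001285), without overlap. The 16 became 6 without control library 1, 8 without shFabp7 library 1, 10 without shFabp7 library 2 and 8 without shFabp7 library 3, and ran from 13 to 29 over the scalings. The 7 called higher became 4 without control library 1 and 3 without shFabp7 library 1. For the BTB genes, the 6 became 3 without control library 1 and 2 without control library 3, shFabp7 library 1 or shFabp7 library 2.

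Transcript composition moved with the partner across all genes. With 16473 genes split into 5 equal bins by GC content, the median log2 difference was -0.06, -0.03, 0.01, 0.03 and 0.05 from the lowest bin (median GC 40.9%) to the highest (57.7%), and calls went from 66 higher and 227 lower to 320 higher and 75 lower. By transcript length, the shortest bin (median 865 bases) had a median of 0.03 and the longest (6307 bases) of -0.04. With offsets for GC content and length in each library, 1667 genes were called higher and 844 lower. The ribosome assembly count was then 84 of the members, with none lower, and the GTPase count 14 lower, with none higher. For the class II genes it was 10 lower. The offsets also gave 32 initiation factors, 26 snRNP proteins, 19 import and export factors, 17 nucleoporins, 19 heat shock chaperones, 19 proteasome subunits and 11 cytosolic ribosomal proteins higher.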

How the data were processed

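RNA sequencing of 12 mouse T cell libraries (4 groups of 3, by partner and time) gave the deposited table of raw counts, whole reads per symbol that the authors had not normalized, for 53762 symbols. The tools named in the submitters' processing notes are CASAVA 1.8.2, HTSeq 0.6.1p1 and TopHat2 2.0.13, on build GRCm39. The sources used here do not name the annotation or the strand setting, and reads of overlapping, antisense or near-identical genes may be split or merged.

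Genes passed edgeR's filterByExpr by group (minimum count 10, total 15), were scaled by TMM and were tested with edgeR 4.0.16 quasi-likelihood (robust) in R 4.3.3, all 12 libraries in 1 fit, with Benjamini-Hochberg adjustment over 16945 genes and a threshold of 0.05. Called, rose and fell refer to this test; errors are SE for log2 differences and SD over 3 libraries for CPM. Samples were grouped by their titles. The 24 h totals were 31952873 to 38616314 counts, which limits scarce transcripts most, and replicate pairs differed beyond counting noise. Members, gene lists and the naming rule were chosen with earlier results of these data known.

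Named genes were the 10 per direction with the smallest adjusted p and the 8 with the largest log2 difference (mean of at least 1 CPM, groups not overlapping), the 10 with the largest CPM difference, up to 4 called members and the extremes of each of 91 lists, the Fabp family, Il2, Ifng and Myc; a subset is described, and certain genes are not reported. Nop2, Pes1, Trac, Gpx4 and mt-Nd1 were chosen after their values were seen. Lists are given by their calls and median beside those of all genes. Promoters came from RefSeq (GRCm38.p6), matched by symbol, the first where there were several (4163 symbols); transcript GC content and length came from GENCODE transcripts of GRCm38.

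Alternatives were DESeq2 1.42.0, RLE, upper-quartile and total-count scaling, other filters, a replicate block, the 24 h libraries alone, a minimum fold of 1.2 and omission of each 24 h library; offsets for GC content and length were added after seeing the data. Tested on simulated data for the 24 h comparison (16523 genes), the procedure recovered 50% of 50 genes changed 1.25-fold, 86% at 1.5-fold, 92% at 2-fold and 100% at 4-fold, and 8 of 172 calls were unchanged genes.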

Additional observations from a re-analysis of the deposited data

Results flagged for a closer look

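For the genes below, the effect of the partner at 48 h differed from that at 24 h by a test of the difference itself (edgeR interaction contrast, adjusted over all tested genes); the value given is the 48 h minus the 24 h log2 difference.

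Genes whose sign differed between the times were Slc16a3 (1.02 ± 0.11, adjusted p = 2.281e-06), Bnip3 (0.62, adjusted p = 0.001203), Bbc3 (-0.61, adjusted p = 0.001674), Igtp (0.30, adjusted p = 0.02239), Rpl22 (-0.35, adjusted p = 0.02239), Ccl22 (0.57, adjusted p = 0.02397) and mt-Nd1 (0.38, adjusted p = 0.0374). Of these, Slc16a3 was called in opposite directions at the 2 times, -0.46 and 0.55. The others were called at 1 time at most: Bnip3, Bbc3, Igtp, Rpl22 and Ccl22 at 24 h, and mt-Nd1 at 48 h. Rpl22 at 24 h (0.21 ± 0.06, adjusted p = 0.03224) was not called without control library 3 or without shFabp7 library 2 (adjusted p up to 0.1307), nor with upper-quartile scaling (0.05988), library totals (0.1035) or the 24 h libraries fitted alone (0.06092).

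The following genes, picked by this test, had larger values at 48 h than at 24 h. The differences were 0.44 for Mthfd1, 0.29 for Shmt1, 0.31 for Odc1, 0.44 for Nop2, 0.41 for Eif3b, 0.26 for Eif5a, 0.41 for Tomm40, 0.27 for Psmd3, 0.51 for Tfrc, 0.43 for Pgam1 and 0.50 for Ccl3. Calr, an endoplasmic reticulum chaperone that was not called at 24 h (0.08 ± 0.05, adjusted p = 0.3597), differed by 0.55.

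Among the remaining genes, the difference was -0.81 for Ccr9 and -0.38 for Nt5e, which fell further at 48 h, and 0.26 for Nrip1, which fell less. It was 0.37 for Entpd1, -0.36 for Tnfsf14 and -0.42 for Phlda3, whose 48 h values were nearer 0.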

How the results depend on the processing

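Every gene called in the main comparison kept its sign under each alternative in which it was tested. Changes of sign were not counted for the named genes that were not called (Trac, Gpx4, mt-Nd1 and Calr). Values over many genes did turn: the median of all genes was -0.0041 with TMM and 0.0224 with RLE scaling, and higher genes made up 57.22% of calls but 42.11% with upper-quartile scaling and 33.22% with library totals. The Zfp genes went from 7 higher and 16 lower to 14 and 12 with the GC and length offsets. DESeq2 called 1852 genes higher, and offsets for GC content and length 1667; with library totals as scaling 604 were higher and 1214 lower. RLE scaling gave 1581 higher and 619 lower, and no filter on low counts 1534 and 680. A minimum fold of 1.2 left 14 genes, 5 higher and 9 lower. Leaving out 1 library at a time gave 949 to 2525 calls, 625 to 1689 higher and 324 to 836 lower, and 319 to 649 interaction calls. The replicate numbers did not pair the samples: same-numbered libraries correlated at -0.0838, 5e-04 and -0.0048 in their deviations from the group means. With the replicate number as a block 1777 genes were called, 1016 higher and 761 lower, with 862 interaction calls; of the genes named, Dhodh alone lost its call under the block. Of the 74 called genes that the text names, 67 kept the call without any 1 library. The cause of these shifts was not tested. Depth limits the scarcest genes, such as Kif2c at 2 to 4 CPM.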
